A study of Mus musculus with 11 samples.

Results

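Knockdown of Map3k7 in the mouse prostate epithelial stem cell line WFU3 was carried by a pair of clones, clone 1 and clone 7, and the results below describe how the mRNA of clone 1 differed from that of clone 7. The members were the 3 libraries of clone 1 and the 3 libraries of clone 7, taken by their labelled genotype, which are 6 of the 11 libraries of the series. All 6 carried a Map3k7 hairpin (labelled shTak1 GFP) from a modified LentLox3.7 lentiviral vector with EGFP, and each also carried a hairpin from the puromycin vector pLKO.1. In clone 1 the second hairpin was shChd1 96526, shChd1 96528 or sh Ctrl, all at passage 49. In clone 7 the same hairpins were used, at passage 48 for both shChd1 constructs and at passage 47 for sh Ctrl. Values are given below in that order of second hairpins. The shControl group held 3 libraries with control hairpins only: an unnumbered line at passage 30 and control lines 4 and 5 at passage 52. Lines 4 and 5 are labelled sh Ctrl GFP with shCtrl puro. The unnumbered line is labelled sh Ctrl puro with shCtrl neo, without GFP, so its label names other vectors than those of the clones. The remaining 2 libraries carried shChd1 in control line 4. No shControl library carried a shChd1 hairpin. In every comparison of a clone with shControl below, the Map3k7 hairpin, the shChd1 hairpins and the clone therefore cannot be told apart. Each Map3k7 line grew from 1 clone picked with a cloning cylinder, so replicate error here is the spread between libraries of 1 clone and not between clones. The labels do not say that the libraries of a clone were independent cultures, and they give no sequencing batch.

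Map3k7 encodes TAK1, a MAP3 kinase that acts with the adaptor proteins Tab1, Tab2 and Tab3 below the receptors for interleukin-1, tumour necrosis factor, Toll-like ligands and TGF-beta. It activates the IKK complex, which releases NF-kB, and the JNK and p38 MAP kinases. Chd1 encodes a chromatin-remodelling ATPase, and MAP3K7 and CHD1 are often deleted together in human prostate cancer. Clones of a cultured line can differ from each other in ways that have nothing to do with the hairpin they carry, since each starts from 1 cell.

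The clones did not differ in Map3k7 mRNA beyond their spread. Map3k7 (chromosome 4, 31964097 to 32023467, plus strand, GRCm38) measured 41.7, 40.9 and 43.0 CPM (counts scaled to a library total of 1e6) in clone 1 and 42.2, 39.3 and 40.1 CPM in clone 7, against 124, 137 and 140 CPM in shControl. The clones overlapped and every one of their libraries lay below every control library. The difference between the clones was 0.05 ± 0.06 on the log2 scale (SE, adjusted p = 0.515, edgeR quasi-likelihood test with Benjamini-Hochberg adjustment, as for every adjusted p below). Chd1 measured 198, 162 and 221 CPM in clone 1 and 194, 190 and 238 CPM in clone 7, against 212, 195 and 204 CPM in shControl. The log2 difference between the clones was -0.10 ± 0.06 (adjusted p = 0.240). In both clones the 2 shChd1 libraries were lower than the sh Ctrl library. Set against shControl, the 96526 library of clone 1 lay within the range of the controls. Those of clone 7 lay little below it, and the 96528 library of clone 1 was the lowest.

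The labelled cell type was only partly matched by its markers. The epithelial genes Krt8, Krt18, Epcam and Cdh1 were abundant in both clones: Krt8 ran from 3670 to 3850 CPM in clone 1 and from 3750 to 3941 CPM in clone 7. Krt14, a basal keratin, ran from 2070 to 2406 CPM in clone 1 and from 1643 to 2234 CPM in clone 7. The basal markers Krt5 and Trp63 were nearly unread. Krt5 was at 0.0650 to 0.780 CPM in clone 1 and 0.156 to 0.362 CPM in clone 7. Trp63 was at 0.585 to 2.34 CPM in clone 1 and 0.521 to 1.81 CPM in clone 7. Other genes of the basal list, such as the integrin genes Itga3, Itga6 and Itgb4, were well read. Itga3 ran from 1371 to 1516 CPM in clone 1 and from 1032 to 1135 CPM in clone 7. Total counts were 23163709, 22329280 and 15925142 in clone 1 and 19937320, 17277242 and 14132371 in clone 7, so that 3 counts were worth 0.133 to 0.217 CPM over the 11 libraries. In each pair the clone 1 library was the deeper one.

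Clone 1 and clone 7 differed in a large share of all genes, mostly by a small amount. Of 13030 genes tested, 4663 (35.8%) were called at an adjusted p under 0.05, 2590 (19.9%) higher and 2073 (15.9%) lower in clone 1. A difference of at least 2-fold was called for 570 genes (4.37%), 421 higher (3.23%) and 149 lower (1.14%) in clone 1. Among the called genes 87.8% differed by less than 2-fold, and the median size was 0.36 on the log2 scale. Library correlations of log2 CPM were 0.984 to 0.993 within a clone and 0.970 to 0.973 between clones. The ranges of the clones did not overlap in 4363 of the 4663 called genes, against 48.2% of all genes tested, and 4648 had the same direction in all 3 pairs of libraries with the same second hairpin. The calls were made on these same libraries, so neither count is separate support for them. The split into higher and lower depends on the scaling: with scaling factors taken from genes off chromosomes 4, 5, 7, 16 and 19, chosen after seeing the data, 3390 genes were higher and 1224 lower in clone 1 (73.5% of calls higher, against 55.5%). Without the 96526 library the count of calls was 1976 when it was left out of clone 1 and 2383 when it was left out of clone 7.

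The 14 genes furthest above clone 7 began with Prex2 and included Robo1, Igfbp7, Prom1 and Cdh2. Prex2, which encodes an exchange factor for the GTPase Rac, was the gene nearest to being read in 1 clone alone. It measured 9.11, 7.67 and 6.96 CPM in clone 1 and 0.0521, 0 and 0.0724 CPM in clone 7, against 1.12, 2.08 and 0.495 CPM in shControl. This corresponds to 480 counts in clone 1 and 2 in clone 7, a ratio of 200.1 after scaling with a 95% counting interval of 55.1 to 1657. Clone 1 stood above the controls in every library (log2 2.67 ± 0.42, adjusted p = 0.00122) and clone 7 below them (log2 -4.72 ± 0.76, adjusted p = 0.00103). No gene was read in clone 7 at 5 CPM or more with at most 3 counts in clone 1.

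Cdh2, which encodes N-cadherin, an adhesion protein of mesenchymal and neural cells, was the most abundant of these 14. It measured 281, 328 and 323 CPM in clone 1 and 14.8, 18.7 and 8.04 CPM in clone 7, against 67.7, 94.2 and 204 CPM in shControl. Every clone 1 library was above, and every clone 7 library below, the range of the controls. The log2 difference between the clones was 4.50 ± 0.19 (adjusted p = 1.85e-05). Robo1, a receptor for Slit guidance proteins, measured 15.3, 6.79 and 7.09 CPM in clone 1 and 0, 0.0594 and 0.217 CPM in clone 7, against 26.4, 32.3 and 3.19 CPM in shControl (log2 difference between the clones 6.84 ± 0.48, adjusted p = 0.000153). Igfbp7, a secreted protein that binds insulin-like growth factors, measured 7.87, 7.39 and 3.90 CPM in clone 1 and 0.0521, 0.0594 and 0.290 CPM in clone 7, against 9.49, 5.92 and 4.62 CPM in shControl (5.67 ± 0.48, adjusted p = 0.000342). For Robo1 and Igfbp7 only clone 7 was called apart from the controls. Its log2 difference from shControl was -7.88 for Robo1 and -5.69 for Igfbp7, both called. That of clone 1 was -1.07 (adjusted p = 0.212) and -0.05 (adjusted p = 0.934). The Robo1 controls spread widely, to both sides of the clone 1 range.

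Prom1, which encodes the surface glycoprotein CD133, measured 9.42, 6.24 and 5.27 CPM in clone 1 and 0.0521, 0.297 and 0.0724 CPM in clone 7, with a wide range in shControl (8.61, 0.363 and 11.3 CPM). Eya4, a transcriptional coactivator, was low in both clones relative to the controls: it measured 15.03, 16.6 and 16.8 CPM in clone 1 and 1.35, 1.25 and 0.580 CPM in clone 7, against 39.0, 59.0 and 31.2 CPM in shControl. Nudt11 and Asxl3 went the other way, with clone 1 above the controls. Nudt11, a diphosphoinositol polyphosphate phosphatase, had 5.17, 5.37 and 7.15 CPM in clone 1 and 0.260, 0.416 and 0.290 CPM in clone 7, against 0.686, 0 and 0.110 CPM in shControl. The remaining members of the 14 were Gria3 (a glutamate receptor subunit), C77370, Cntn2 (contactin 2), Ptprb (a receptor tyrosine phosphatase), Gxylt2 and Hs6st2 (enzymes that modify glycans), with log2 differences of 6.44, 5.88, 5.32, 5.15, 4.26 and 4.25. All 14 were called, and in each the range of clone 1 lay wholly above that of clone 7, which the rule for choosing them required.

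Among the 14 genes furthest below clone 7 were Il1a, Gcnt3, Fbn1, Parvb, Lcn2 and Hgf. Fbn1, which encodes the microfibril protein fibrillin-1, measured 1.37, 0.551 and 1.37 CPM in clone 1 and 18.9, 22.1 and 32.1 CPM in clone 7, against 419, 386 and 196 CPM in shControl. Both clones lay far below every control library, and clone 1 lay below clone 7 (log2 difference -4.44 ± 0.23, adjusted p = 3.95e-05). Il1a, the cytokine interleukin-1 alpha, measured 1.15, 0.321 and 2.34 CPM in clone 1 and 51.2, 6.71 and 37.2 CPM in clone 7, against 1.12, 1.04 and 28.5 CPM in shControl (-4.69 ± 0.25, adjusted p = 4.3e-05). The 96528 library was the lowest in each clone.

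Parvb, which encodes beta-parvin, an actin-binding protein of focal adhesions, measured 1.90, 0.918 and 1.301 CPM in clone 1 and 24.8, 17.3 and 19.3 CPM in clone 7, against 4.18, 2.65 and 3.57 CPM in shControl. Here the clones stood on opposite sides of the controls, clone 1 by a log2 difference of -1.32 (adjusted p = 0.00628) and clone 7 by 2.57 (adjusted p = 0.000101). Gcnt3, a mucin-type glycosyltransferase, had the same pattern, at 0.796, 0.689 and 1.43 CPM in clone 1 and 26.5, 21.04 and 16.9 CPM in clone 7, against 5.80, 4.57 and 12.5 CPM in shControl. Hgf, the ligand of the receptor Met, measured 1.28, 1.65 and 0.846 CPM in clone 1 and 8.23, 8.32 and 6.16 CPM in clone 7, against 6.43, 12.7 and 13.9 CPM in shControl. Clone 7 did not pass the test against the controls for Hgf (log2 -0.54, adjusted p = 0.177) and clone 1 did (-3.10, adjusted p = 0.00019).

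Lcn2, the iron-carrier-binding protein lipocalin 2, had the least even values of the set, at 0.884, 1.79 and 1.43 CPM in clone 1 and 10.7, 1.96 and 30.1 CPM in clone 7, against 508, 1177 and 583 CPM in shControl (log2 difference between the clones -2.92 ± 0.64, adjusted p = 0.0108). The acute-phase gene Orm1, whose reads can be shared with close copies, differed by -3.38 ± 0.27. The other members were Syt13 (a synaptotagmin), Trpm6 (a magnesium channel), Col27a1 (a fibrillar collagen chain), Tmprss11e (a membrane serine protease), Pou2af1 (a B-cell coactivator), Acap1 (an Arf GTPase activator) and Piezo2 (a mechanically gated channel), with log2 differences of -4.34, -3.35, -2.96, -2.85, -2.85, -2.71 and -2.60.

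**Figure D1:**
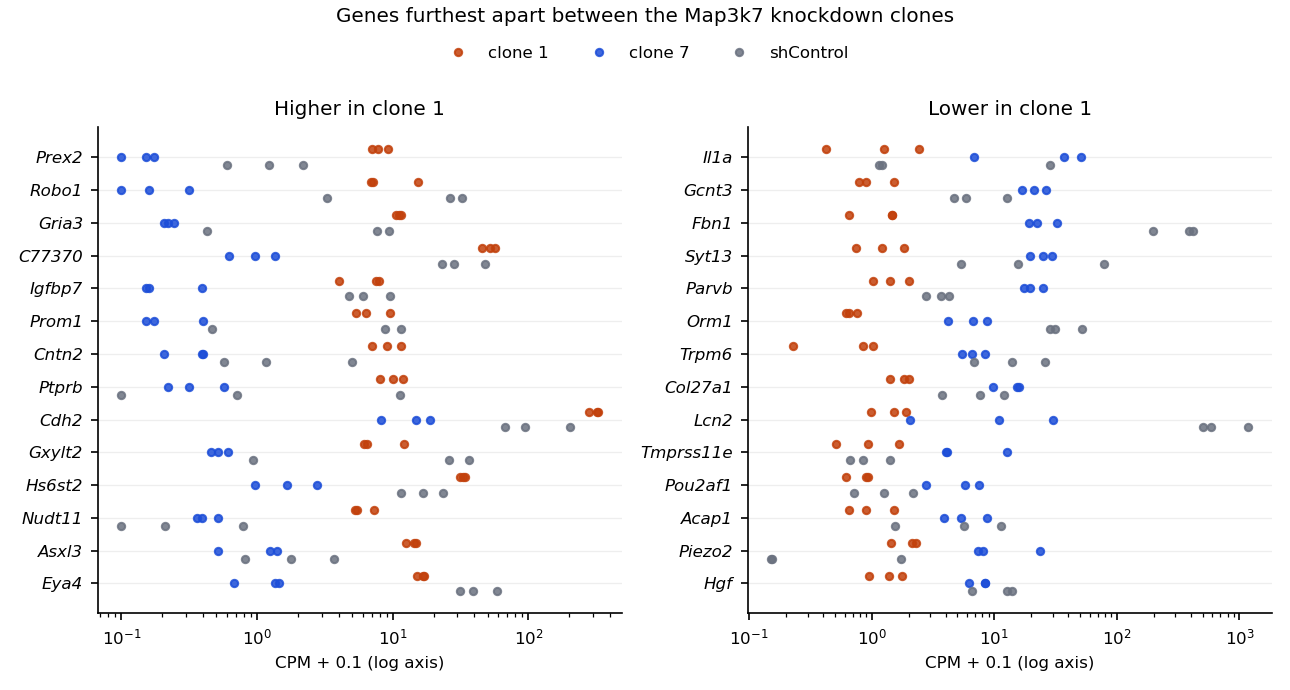
CPM plus 0.1 on a log axis for the 14 genes furthest above (left) and the 14 furthest below (right) clone 7, with 1 point per library of clone 1, clone 7 and shControl. The clones are apart in every gene by the rule that chose them, while the controls lie near clone 1 for genes such as Igfbp7, near clone 7 for genes such as Hgf, and above both for Fbn1 and Lcn2.

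Where the controls lay was counted over all genes that differed by at least 2-fold. Of the 421 higher in clone 1, clone 1 was called above shControl in 117 and below it in 61, and clone 7 was called above shControl in 14 and below it in 225. Of the 149 lower in clone 1, clone 1 was called above shControl in 7 and below it in 63, and clone 7 was called above in 47 and below in 26. Over all genes, 4491 of 14346 (31.3%) were called between clone 1 and shControl, 2096 higher and 2395 lower, and 5584 (38.9%) between clone 7 and shControl, 2641 higher and 2943 lower. Both comparisons use the same 3 control libraries, so their counts are not independent. Each clone mean holds 2 libraries with a shChd1 hairpin, which no control library carries, so these counts are not of the Map3k7 hairpin alone. In fits of only the 2 groups compared the counts were 2984 for clone 1 and 3680 for clone 7.

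The bases upstream of 4 of these genes are shown because these genes are among the furthest apart between the clones, 2 in each direction: the first 2 of each set whose RefSeq start lies within 100 bases of the GENCODE start. They are the 250 bases before the start, 5′ to 3′ on the gene's strand, from RefSeq on GRCm38.p6, with CG dinucleotides in capitals. Igfbp7 (chr5:77408046-77408295, minus strand) and Gxylt2 (chr6:100704484-100704733, plus strand) were higher in clone 1, and Il1a (chr2:129309973-129310222, minus strand) and Parvb (chr15:84231793-84232042, plus strand) were lower.
Igfbp7: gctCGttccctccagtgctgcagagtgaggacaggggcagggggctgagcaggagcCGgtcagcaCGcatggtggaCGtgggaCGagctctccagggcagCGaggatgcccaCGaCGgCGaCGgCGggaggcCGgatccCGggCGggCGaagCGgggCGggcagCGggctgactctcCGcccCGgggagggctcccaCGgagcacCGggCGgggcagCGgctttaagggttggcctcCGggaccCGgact
Gxylt2: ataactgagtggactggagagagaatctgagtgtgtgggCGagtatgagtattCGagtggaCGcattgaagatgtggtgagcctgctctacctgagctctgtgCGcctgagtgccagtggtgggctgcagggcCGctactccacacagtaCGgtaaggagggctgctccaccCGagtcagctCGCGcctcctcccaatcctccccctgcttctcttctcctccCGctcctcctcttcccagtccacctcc
Il1a: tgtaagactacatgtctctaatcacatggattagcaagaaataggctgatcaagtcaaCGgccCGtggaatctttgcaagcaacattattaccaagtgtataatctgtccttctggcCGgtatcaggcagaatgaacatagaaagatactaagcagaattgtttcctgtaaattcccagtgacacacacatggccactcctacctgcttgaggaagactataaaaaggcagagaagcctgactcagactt
Parvb: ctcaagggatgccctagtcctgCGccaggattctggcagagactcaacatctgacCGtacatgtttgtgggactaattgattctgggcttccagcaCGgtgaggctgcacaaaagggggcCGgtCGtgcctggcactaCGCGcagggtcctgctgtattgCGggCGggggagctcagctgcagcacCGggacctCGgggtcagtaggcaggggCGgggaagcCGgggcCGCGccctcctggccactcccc
The windows hold 26 CG in Igfbp7, 10 in Gxylt2, 3 in Il1a and 15 in Parvb. Over the 9528 genes tested that have such a window the median was 16 (quartiles 10 and 23), 99.2% held at least 1 CG and 11.7% held at most 5. At most 5 CG were found in 24.7% of the 288 windows of genes at least 2-fold higher in clone 1 and in 35.7% of the 98 windows of genes at least 2-fold lower. The counted windows were not held to the limit of 100 bases. In some the RefSeq start lay farther from the GENCODE start, such as 1555 bases for Fbn1 and 354843 for Robo1. These are counts of letters; DNA methylation was not measured in these files.

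The calls were unevenly spread over the chromosomes. Genes of chromosomes 4, 5, 7, 16 and 19 were shifted upward in clone 1 relative to clone 7, with median log2 differences of 0.25, 0.24, 0.31, 0.28 and 0.19. These 5 chromosomes hold 26.9% of the genes tested (3506) and 62.9% of the genes called higher in clone 1. On them 46.5% of genes were called higher and 2.71% lower, and elsewhere 10.1% were called higher and 20.8% lower. Differences of at least 2-fold were less uneven: on these chromosomes 4.02% of genes were called higher and 0.941% lower at that size, and elsewhere 2.94% and 1.22%. The median difference was 0.26 on them and -0.08 off them. Chromosomes 8 and 13 lay lowest among the autosomes, at -0.17 and -0.16, with 32.4% and 31.1% of their genes called lower. Taking each pair of libraries with the same second hairpin gave 0.23, 0.26 and 0.24 for chromosome 4 and 0.32, 0.34 and 0.29 for chromosome 7. The chromosomes were picked from these values, so no test supports the choice; an exact permutation test over the 6 libraries, two-sided, gave p = 0.1 for each of them, the smallest that 3 against 3 allows, and the same for chromosomes with medians near 0 such as 2, 9 and 10, so that it does not set the picked ones apart.

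**Figure D2:**
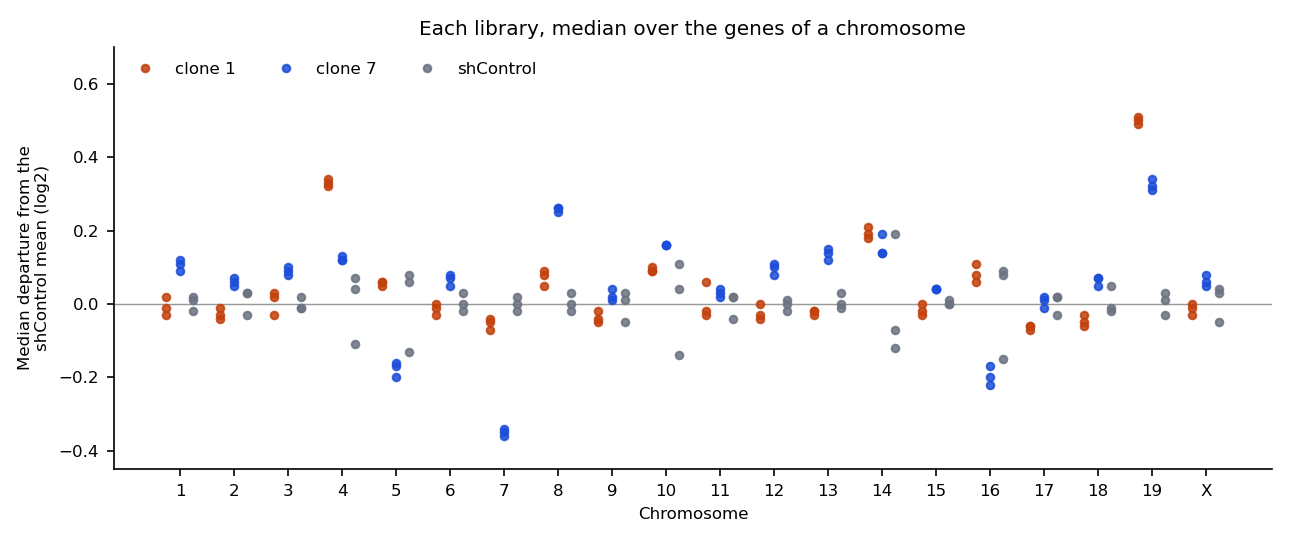
Median over the genes of each chromosome of a library's departure from the shControl mean (log2), with 1 point per library of clone 1, clone 7 and shControl. The libraries of a clone lie close together. Clone 1 is above clone 7 on chromosomes 4, 5, 7, 16 and 19. Clone 7 is above clone 1 on chromosomes 8 and 13, and by less on others such as 1, 12 and 18.

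Set against the mean of the control libraries, the clone that departed was not the same for each chromosome. On chromosome 7 the medians were -0.05, -0.04 and -0.07 in clone 1 and -0.36, -0.35 and -0.34 in clone 7, so that clone 7 was the one away from the controls. On chromosome 8 clone 1 was at 0.08, 0.09 and 0.05 and clone 7 at 0.25, 0.26 and 0.26. Both clones stood above the controls on chromosome 19, at 0.50, 0.51 and 0.49 in clone 1 and 0.34, 0.31 and 0.32 in clone 7, and on chromosome 4, at 0.32, 0.34 and 0.33 in clone 1 and 0.12, 0.13 and 0.12 in clone 7. Chromosomes 5 and 16 were near the controls in clone 1 (0.05, 0.06 and 0.06, and 0.08, 0.06 and 0.11) and below their mean in clone 7 (-0.17, -0.16 and -0.20, and -0.22, -0.17 and -0.20). Control line 4 was low there too, at -0.13 on chromosome 5 and -0.15 on chromosome 16. DNA copy number was not measured in these files, and the cause of the shifts was not tested.

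Along the chromosomes, windows of 40 neighbouring genes mostly kept the shift of their chromosome. All 25 windows of chromosome 7 had medians above 0 for the clone difference, from 0.13 to 0.46, as had all 22 of chromosome 5 (0.07 to 0.43) and all 10 of chromosome 16 (0.16 to 0.38). Chromosome 4 was uneven: its first 6 windows, up to position 63348163, had medians of 0.03 to 0.16, and those from 63362449 on had 0.18 to 0.41. Chromosome 19 was uneven in the other direction, with 0.24 to 0.30 in its first 4 windows, up to 8941582, and 0.05 to 0.20 beyond. In those first 4 windows clone 7 stood 0.13 to 0.23 above the control mean, and in the others 0.24 to 0.50. On chromosome 8, 17 of 18 windows lay below 0.

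**Figure D3:**
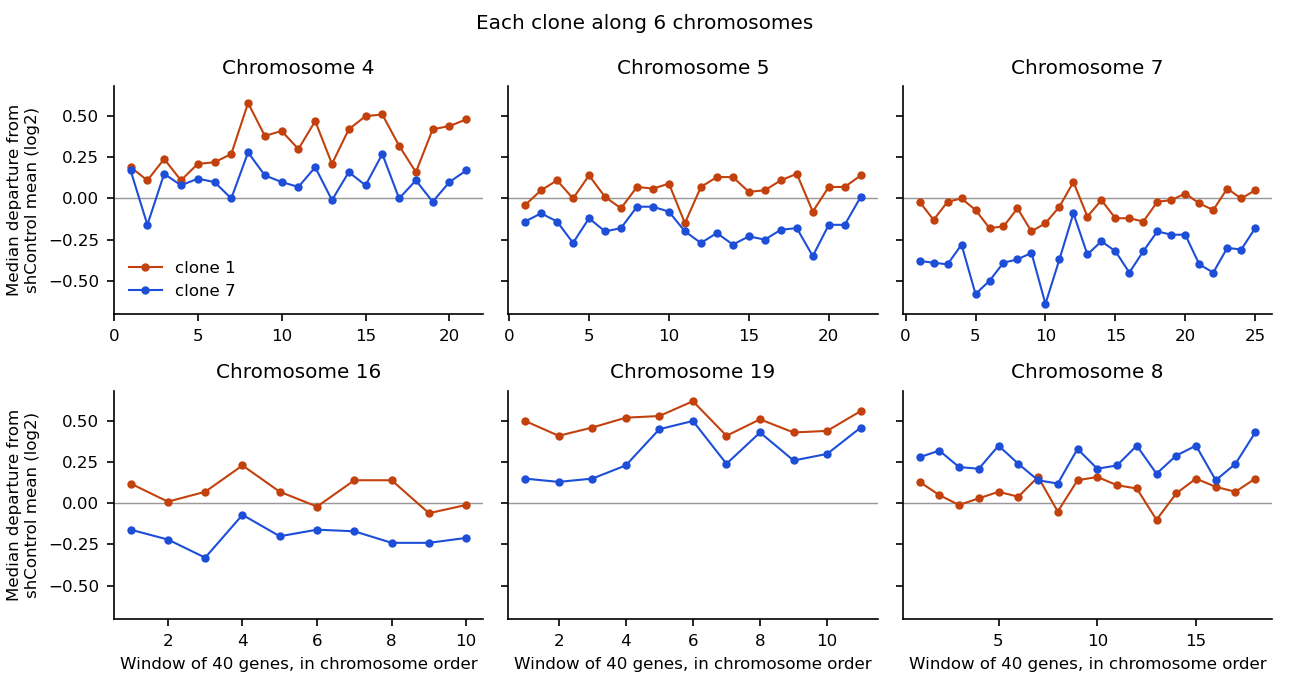
Median departure from the shControl mean (log2) of clone 1 and clone 7 in successive windows of 40 tested genes along 6 chromosomes. On chromosome 7 the lines run apart over the whole length, on chromosome 4 their distance varies from window to window, and on chromosome 19 they are furthest apart in the first 4.

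The most abundant called genes of these chromosomes are named by their level. On chromosome 7, Ftl1, the ferritin light chain, measured 2140, 2209 and 2350 CPM in clone 1 and 1701, 1823 and 1920 CPM in clone 7 (log2 0.31 ± 0.04, adjusted p = 0.00147). On chromosome 16, the translation initiation factor Eif4g1 differed by 0.31 ± 0.04 and the proteasome subunit Psmd2 by 0.27 ± 0.04. On chromosome 4 the glycolytic enzyme Eno1 differed by 0.28 ± 0.05. Genes of chromosome 8 went both ways: the ribosomal protein gene Rpl13 differed by -0.23 ± 0.04 and Fat1, an atypical cadherin, by 0.45 ± 0.04. On chromosome 13 the ribosomal protein gene Rps23 differed by -0.31 ± 0.04 and Inhba, a subunit of activin, by -0.22 ± 0.06, a call that was lost with scaling from genes off chromosomes 4, 5, 7, 16 and 19, in the fit of all 11 libraries and without any 1 of the 96526 or 96528 libraries. Reads of ribosomal protein genes can be shared with their pseudogenes.

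Since gene lists differ in where their members lie, most are given over all tested members and then without members on chromosomes 4, 5, 7, 16 and 19. Off these chromosomes the background is 10.1% higher and 20.8% lower. Lists with no tested member on them, and marker lists of other cell types, are given once. Counts are calls at an adjusted p under 0.05 over all genes, to be read against the 19.9% higher and 15.9% lower of all genes, whose median log2 difference was 0.00.

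Among genes of DNA replication and mitosis, 28 of 56 tested members were lower in clone 1, 7 were higher and the others did not pass the test, with a median log2 difference of -0.17. The 7 higher ones all lie on chromosomes 4, 5 and 7, and among the 38 members off the shifted chromosomes 26 were lower and 0 higher, with a median of -0.26. Top2a, the topoisomerase that untangles DNA in mitosis, measured 652, 651 and 636 CPM in clone 1 and 851, 931 and 842 CPM in clone 7 (log2 -0.43 ± 0.04, adjusted p = 0.000674). Bub1, a kinase of the spindle checkpoint, measured 55.2, 53.6 and 53.2 CPM in clone 1 and 81.5, 77.4 and 74.1 CPM in clone 7 (-0.52 ± 0.06). The libraries of the clones did not overlap in either gene. Pola1, the catalytic subunit of DNA polymerase alpha, differed by -0.47 ± 0.06 and Kif20a, a kinesin of cytokinesis, by -0.41 ± 0.05. Clone 7 was above shControl for Bub1 (0.36, adjusted p = 0.0291) and Pola1 (0.47, adjusted p = 0.0048), and clone 1 did not pass the test against shControl for any of these 4 genes. With scaling from genes off the shifted chromosomes the list had 20 lower and 11 higher. It had 12 lower without the 96526 library of clone 1, 17 without that of clone 7, and 18 in a fit of all 11 libraries.

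**Figure D4:**
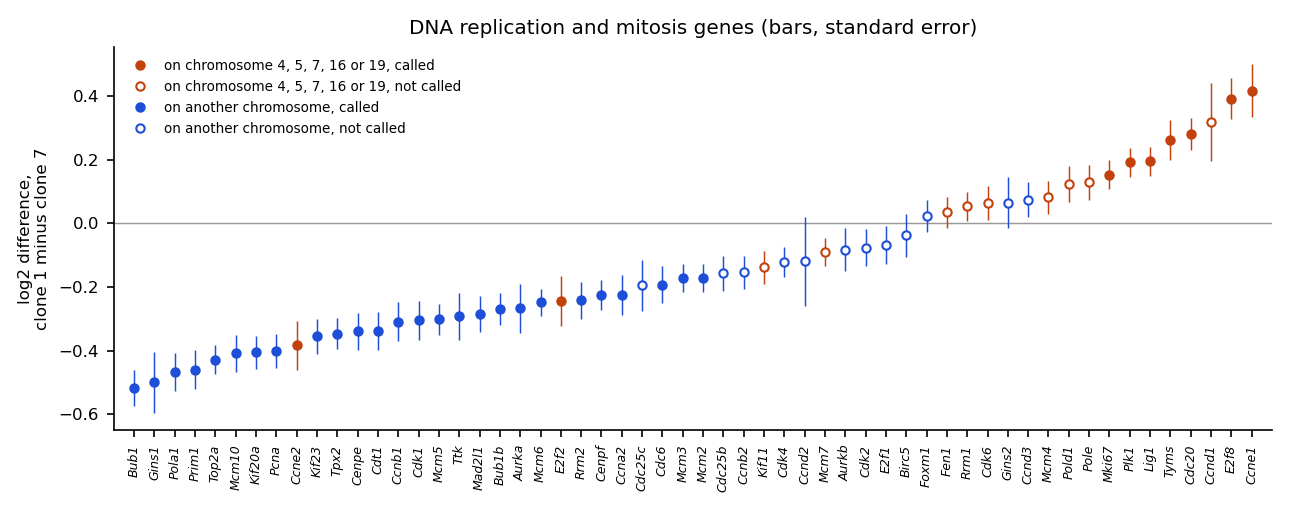
Log2 difference, clone 1 minus clone 7, of the 56 tested genes of DNA replication and mitosis, with bars of 1 standard error, filled points for called genes and colours for chromosome. The members higher in clone 1 that were called all lie on chromosomes 4, 5 or 7, and Bub1, at -0.52, is the lowest.

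In the lists of basement membrane and guidance genes, far more members were called higher than lower in clone 1. The basement membrane is the sheet of laminins, type IV collagens and proteoglycans on which epithelia sit, held by integrins. Of 41 tested members of this list 21 were higher and 3 lower in clone 1 (median 0.25), and off the shifted chromosomes 18 of 36 were higher and 3 lower (median 0.22). The 3 lower were Sdc1, Col18a1 and Lamb1, named after their values were seen. Hspg2, which encodes perlecan, measured 877, 947 and 883 CPM in clone 1 and 325, 360 and 422 CPM in clone 7 (log2 1.31 ± 0.07, adjusted p = 6.2e-05). Col4a5, a type IV collagen chain, measured 37.0, 29.8 and 39.4 CPM in clone 1 and 11.7, 9.69 and 18.8 CPM in clone 7 (1.45 ± 0.13). Col4a2 measured 374, 279 and 398 CPM in clone 1 and 202, 183 and 191 CPM in clone 7 (0.86 ± 0.08). No library of clone 1 overlapped clone 7 in these 3 genes. For Hspg2 clone 7 was below shControl (-1.32, adjusted p = 0.000987), whereas for Col4a5 and Col4a2 clone 1 was above it (1.36 and 1.59). Gpc6, a glypican, differed by 0.71 ± 0.07. Without the 96526 library of clone 1 the count of higher members was 13.

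Semaphorins, ephrins, slits, netrins and their receptors, which steer axons and also sort epithelial cells by repulsion, had 23 of 45 tested members higher and 2 lower (median 0.30). Many lie on the shifted chromosomes, and so do the genes named here: Epha7 (chromosome 4), Robo1 and Ephb3 (chromosome 16) and Sema3d (chromosome 5). Off the shifted chromosomes 12 of 32 were higher and 1 lower (median 0.16). Epha7, an ephrin receptor, measured 15.6, 18.1 and 17.6 CPM in clone 1 and 1.67, 2.02 and 0.797 CPM in clone 7, against 18.5, 33.0 and 9.84 CPM in shControl (3.48 ± 0.22, adjusted p = 9.5e-05). As with Robo1, clone 7 was called below shControl (-3.74, adjusted p = 0.000199). Clone 1 did not pass that test for Epha7 (-0.26, adjusted p = 0.600), with controls on both sides of it. Ephb3 measured 136, 175 and 146 CPM in clone 1 and 70.9, 78.7 and 81.2 CPM in clone 7 (0.99 ± 0.07). Sema3d, a secreted semaphorin, measured 8.22, 7.39 and 9.88 CPM in clone 1 and 1.77, 1.84 and 1.96 CPM in clone 7 (2.19 ± 0.17), with shControl in between at 2.93, 3.48 and 3.52 CPM. In a fit of all 11 libraries 14 members were higher.

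TGF-beta and BMP signalling is an input to TAK1. Of 42 tested members 15 were higher in clone 1 and 2 lower (median 0.14), and off the shifted chromosomes 9 of 32 were higher and 2 lower. Bmp4, a BMP ligand, measured 285, 231 and 326 CPM in clone 1 and 110, 85.9 and 121 CPM in clone 7, against 98.2, 58.5 and 87.5 CPM in shControl. Every clone 1 library was above all clone 7 and control libraries (log2 1.42 ± 0.05, adjusted p = 7.2e-06, against clone 7). Id1, a BMP target that blocks helix-loop-helix factors, measured 104, 93.4 and 94.6 CPM in clone 1 and 26.5, 31.8 and 35.7 CPM in clone 7 (1.66 ± 0.11). Fst, the activin antagonist follistatin, measured 68.9, 47.2 and 71.5 CPM in clone 1 and 19.06, 18.7 and 30.4 CPM in clone 7 (1.49 ± 0.12). For Fst clone 7 was below shControl (-1.77) while clone 1 did not pass the test (-0.30, adjusted p = 0.342). Gdf15, a distant member of the family induced by stress, measured 13.3, 12.9 and 12.9 CPM in clone 1 and 0.937, 2.26 and 2.10 CPM in clone 7 (2.94 ± 0.24). The 2 lower were the receptor gene Bmpr2 and Inhba.

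Wnt signalling had 10 of 30 tested members higher and 1 lower (median 0.32), and 7 of 24 higher and 1 lower off the shifted chromosomes. The receptor gene Fzd1 measured 23.7, 32.9 and 24.1 CPM in clone 1 and 8.90, 12.8 and 8.77 CPM in clone 7 (1.41 ± 0.08, adjusted p = 7.6e-05). Fzd3 differed by 1.40 ± 0.10 and the ligand Wnt5b by 1.15 ± 0.12. The single lower member was Sfrp1, a secreted Wnt antagonist, at 17.5, 20.9 and 14.2 CPM in clone 1 and 26.7, 35.2 and 26.4 CPM in clone 7 (-0.74 ± 0.08). Notch signalling had 7 of 25 higher and 3 lower (4 and 3 of 21 off the shifted chromosomes). Its higher count was 4 when any 96526 or 96528 library was left out and 3 in a fit of all 11 libraries, and its lower count was 0 without either 96526 library and 1 in the fit of all 11. Notch3 measured 19.9, 20.7 and 20.2 CPM in clone 1 and 4.95, 4.58 and 8.84 CPM in clone 7 (1.79 ± 0.19), and Numbl, a homologue of the Notch antagonist Numb, differed by 1.59 ± 0.13. ErbB, FGF, IGF and PDGF signalling had 14 of 40 higher and 7 lower (6 and 5 of 26 off the shifted chromosomes), with 7 higher when the 96526 library of clone 1 was left out and 9 when that of clone 7 was. Igf1r, the receptor of insulin-like growth factor 1, differed by 0.53 ± 0.05.

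Epithelial and mesenchymal genes were both higher in clone 1 more often than lower. Epithelial junction and identity genes had 15 of 48 higher and 5 lower (median 0.11), but off the shifted chromosomes 8 of 33 higher and 4 lower (median 0.04). Cdh3, which encodes P-cadherin, measured 66.5, 75.9 and 62.4 CPM in clone 1 and 34.3, 38.8 and 39.0 CPM in clone 7 (0.88 ± 0.08), and Spint2, an inhibitor of serine proteases, differed by 0.67 ± 0.05. The count of higher members was 9 without the 96528 library of clone 1, 8 without that of clone 7 and 3 in a fit of all 11 libraries. Mesenchymal genes and genes of epithelial to mesenchymal transition had 15 of 34 higher and 7 lower (median 0.20; off the shifted chromosomes 10 and 7 of 27), with Cdh2 and Fbn1 at the 2 ends. Vim, the intermediate filament vimentin, measured 405, 335 and 414 CPM in clone 1 and 298, 246 and 288 CPM in clone 7, against 866, 936 and 451 CPM in shControl (0.48 ± 0.04 between the clones), so both clones lay below the controls. Axl, a receptor tyrosine kinase, measured 925, 867 and 930 CPM in clone 1 and 622, 542 and 490 CPM in clone 7 (0.73 ± 0.07). Without the 96526 library of clone 1, 9 mesenchymal members were higher.

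Prostate basal markers had 8 of 19 higher and 1 lower, and luminal markers 8 of 17 higher and 1 lower. Off the shifted chromosomes the counts were 7 of 17 higher for basal and 6 of 15 higher for luminal markers, with 1 lower in each. Of the basal list, the laminin receptor genes Itga3 and Itga6 differed by 0.43 ± 0.05 and 0.68 ± 0.11. Ngfr, the low-affinity neurotrophin receptor, measured 6.90, 3.44 and 7.28 CPM in clone 1 and 1.67, 0.594 and 0.362 CPM in clone 7, against 0.0624, 0.415 and 0 CPM in shControl (2.71 ± 0.36, adjusted p = 0.00161). Of the luminal list, the keratin gene Krt19 differed by 0.55 ± 0.07. Luminal markers had 5 higher when either 96526 library or either 96528 library was left out, and 3 in a fit of all 11 libraries, where basal markers had 4. Androgen-responsive genes had 8 of 42 higher and 10 lower (5 and 10 of 35 off the shifted chromosomes). Their counts were 4 and 5 when the 96526 library of clone 1 was left out and 4 and 6 when that of clone 7 was. Adamts1, a secreted protease, measured 427, 418 and 515 CPM in clone 1 and 158, 205 and 182 CPM in clone 7 (1.33 ± 0.09).

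Transcription factors of the SOX, FOX, GATA and other lineage families had 18 of 44 higher and 5 lower (median 0.27), and 42 of the 44 lie off the shifted chromosomes, with 16 higher and 5 lower. Foxf1, a forkhead factor of mesenchyme, measured 22.6, 17.6 and 17.8 CPM in clone 1 and 67.7, 52.2 and 54.2 CPM in clone 7, against 29.0, 55.1 and 87.0 CPM in shControl (-1.58 ± 0.06, adjusted p = 1.3e-05). Foxl2 measured 10.0, 10.9 and 10.7 CPM in clone 1 and 2.86, 3.80 and 2.54 CPM in clone 7, against 1.62, 0.519 and 0.275 CPM in shControl (1.79 ± 0.16). Barx2, a homeobox factor, measured 9.86, 27.3 and 12.9 CPM in clone 1 and 2.29, 9.75 and 3.12 CPM in clone 7 (1.81 ± 0.15), with the 96528 library the highest in each clone. The count of higher members was 9 without the 96526 library of clone 1 and 11 without that of clone 7.

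Few genes of the TAK1 complex were called between the clones. Of 28 tested genes of the TAK1 complex and its upstream receptors, 3 were higher (10.7%) and 2 lower (7.14%) in clone 1. Both shares were below those of all genes, and the median was -0.03. Off the shifted chromosomes 3 of 24 were higher, near the 10.1% background there, and 2 were lower, below the 20.8% background (median -0.04). The called members were the receptor genes Ltbr (0.36 ± 0.06) and Il1r1 (0.59 ± 0.16), the ubiquitin ligase gene Rnf31 (0.31 ± 0.08), the kinase gene Ripk1 (-0.27 ± 0.06) and the adaptor gene Tab1 (-0.27 ± 0.07). Tab1 was named after its value was seen. These calls varied with the processing. The lower count was 0 by DESeq2 and without the 96526 library of either clone. The higher count was 2 by DESeq2 and 1 when any 96526 or 96528 library was left out. With scaling from genes off the shifted chromosomes the list had 6 higher and 1 lower. It had 5 higher and 3 lower without the sh Ctrl library of clone 1, and 4 and 3 without that of clone 7. The MAP kinase and IKK genes below TAK1 had 10 of 36 higher and 3 lower (5 and 3 of 27 off the shifted chromosomes). Tnip1, an A20-binding inhibitor of NF-kB signalling, measured 45.01, 49.3 and 52.0 CPM in clone 1 and 91.7, 86.5 and 91.5 CPM in clone 7, against 58.0, 122 and 114 CPM in shControl (-0.88 ± 0.07, adjusted p = 0.000211). The MAP kinase phosphatase genes Dusp1 and Dusp8 differed by 0.75 ± 0.07 and 0.60 ± 0.07.

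NF-kB targets had 4 of 31 higher and 8 lower (median -0.13; 1 and 7 of 24 off the shifted chromosomes). Csf3, which encodes the granulocyte growth factor G-CSF, measured 13.4, 11.3 and 13.3 CPM in clone 1 and 39.0, 18.1 and 36.8 CPM in clone 7, against 69.7, 68.0 and 82.8 CPM in shControl (-1.24 ± 0.16, adjusted p = 0.00142). Cxcl3, a neutrophil chemokine, went the other way, at 22.1, 17.4 and 23.2 CPM in clone 1 and 10.2, 5.05 and 4.56 CPM in clone 7, against 48.2, 55.5 and 68.5 CPM in shControl (1.69 ± 0.20). Both clones were below all controls in both genes. The list had 5 lower and 6 higher with scaling from other chromosomes. Its lower count was 3 without the 96526 library of clone 1, 4 without that of clone 7, and 13 without the 96528 library of either clone. Interferon response genes had 3 of 27 higher and 1 lower (1 and 1 of 19 off the shifted chromosomes). Class I antigen presentation genes had 2 of 17 in each direction. H2-K1, a class I heavy chain whose reads can be shared with its relatives, measured 252, 259 and 261 CPM in clone 1 and 196, 203 and 175 CPM in clone 7 (0.43 ± 0.06), while Ifit2 differed by 0.90 ± 0.12.

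Targets of p53 with the Cdkn2 locus had 17 of 34 higher and 4 lower (median 0.28), but off the shifted chromosomes 8 of 22 were higher and 4 lower (median 0.03). Bax, a cell death effector on chromosome 7, measured 201, 209 and 201 CPM in clone 1 and 121, 125 and 124 CPM in clone 7 (0.73 ± 0.05, adjusted p = 0.00011). Mtap on chromosome 4 differed by 0.79 ± 0.05, and Phlda3 on chromosome 1 by 0.63 ± 0.06. The unfolded protein and ATF4 stress response had 12 of 37 higher and 2 lower. Off the shifted chromosomes it had 3 and 2 of 26, a higher share near the 10.1% background there, unlike the p53 list, which stayed above it. The higher count of the stress list was 5 to 7 when any 96526 or 96528 library was left out. Sesn2, on chromosome 4, differed by 0.95 ± 0.08. AP-1, Myc and Kruppel-like factors had 14 of 38 higher and 7 lower (7 and 6 of 26). Jun, an AP-1 subunit on chromosome 4, measured 84.3, 90.5 and 76.0 CPM in clone 1 and 41.2, 55.5 and 43.3 CPM in clone 7 (0.86 ± 0.08). The higher count of this list was 7 to 9 when any 96526 or 96528 library was left out.

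Metabolic lists were called in both directions. Hypoxia and glycolysis genes had 12 of 40 higher and 12 lower (6 and 10 of 30 off the shifted chromosomes), with 6 and 7 lower when the 96526 library of clone 1 or of clone 7 was left out. The carbonic anhydrase gene Car12 measured 21.98, 22.4 and 21.1 CPM in clone 1 and 6.92, 6.12 and 8.40 CPM in clone 7 (1.63 ± 0.12), and Car9 differed by 2.07 ± 0.19. Targets of NRF2 with glutathione and aldehyde metabolism had 10 of 45 higher and 11 lower (6 and 9 of 35). Gpx2, a glutathione peroxidase, measured 15.3, 19.5 and 12.6 CPM in clone 1 and 44.2, 71.3 and 52.0 CPM in clone 7, against 4.74, 0.104 and 17.0 CPM in shControl (-1.80 ± 0.10, adjusted p = 5.8e-05). The metallothionein genes Mt1 and Mt2, close copies of each other, differed by 1.00 ± 0.07 and 1.20 ± 0.12. Without the 96526 library of clone 1 this list had 4 higher and 5 lower, and without that of clone 7 it had 5 and 7. Cholesterol and fatty acid synthesis had 6 of 37 higher, all on the shifted chromosomes, and 7 lower. Its lower count was 4 when either 96526 library was left out, and with scaling from other chromosomes it had 10 higher and 4 lower.

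Imprinted genes, read from 1 parental copy, had 4 of 27 higher and 10 lower (2 and 7 of 17 off the shifted chromosomes). Peg3, a zinc finger gene on chromosome 7 read from the paternal copy, measured 51.7, 22.4 and 27.4 CPM in clone 1 and 198, 150 and 222 CPM in clone 7, against 74.6, 5.19 and 316 CPM in shControl. The clones were apart and the controls spanned more than both (log2 -2.53 ± 0.18, adjusted p = 0.000174). The lower count was 6 when either 96526 library was left out. Xist, the RNA that coats the inactive X chromosome, measured 1016, 978 and 1078 CPM in clone 1 and 1433, 1576 and 1437 CPM in clone 7 (-0.53 ± 0.06, adjusted p = 0.000737). It was the only tested member of its list. The Y-linked genes Ddx3y and Eif2s3y were at 0 in all 11 libraries, while Kdm5d was at 0.297 to 1.14 CPM and Uty at 0 to 0.0622 CPM. DNA methylation and Polycomb enzymes had 3 of 30 higher and 8 lower (2 and 8 of 26), with 4 lower when either 96526 library was left out. Smchd1, a repressor needed for X inactivation, differed by -0.44 ± 0.06 and the methyltransferase Ezh2 by -0.38 ± 0.06. CHD remodellers had 0 of 10 higher and 2 lower (0 and 1 of 7 off the shifted chromosomes). The lower ones were Chd2 and Chd6, both by -0.20 ± 0.06. Neither was called with scaling from other chromosomes, by DESeq2, in a fit of all 11 libraries or without either 96526 library. Clustered protocadherins, whose reads share exons, had 1 of 12 higher and 2 lower, Hox genes 1 of 13 higher (Hoxb9) and 0 lower, and germline genes 0 higher and 2 of 2 lower (Tex15 and Sycp1).

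Markers of other cell types were few and mostly at the floor. In bulk RNA, fewer cells of a type and less RNA per cell cannot be told apart. Of 11 fibroblast markers 3 were tested and 1 was higher in clone 1 (Col1a1, at 1.69 to 2.94 CPM in clone 1 and 1.01 to 1.20 CPM in clone 7), a call that was lost by DESeq2, in a fit of all 11 libraries and without any 1 of the 96526 or 96528 libraries. Their summed level was 8.71 to 12.5 CPM in clone 1 and 6.002 to 13.3 CPM in clone 7, and Dcn, Lum and Thy1 were at 0 in all 6 libraries. Of 7 smooth muscle markers 2 were tested, with Acta2 higher and Smtn lower; the sum was 221 to 241 CPM in clone 1 and 254 to 291 CPM in clone 7, nearly all of it Smtn. Of 8 endothelial markers 1 was tested, and of 8 immune markers 2, with none called; the sums were 1.19 to 1.68 CPM in clone 1 and 0.942 to 1.35 CPM in clone 7 for the endothelial list, and 14.2 to 16.1 CPM in clone 1 and 10.4 to 15.6 CPM in clone 7 for the immune list. Of 8 neuroendocrine markers the adhesion gene Ncam1 alone was tested, and it measured 106, 128 and 96.9 CPM in clone 1 and 41.1, 47.5 and 47.2 CPM in clone 7, against 196, 386 and 195 CPM in shControl (1.29 ± 0.08, adjusted p = 0.000117).

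**Figure D5:**
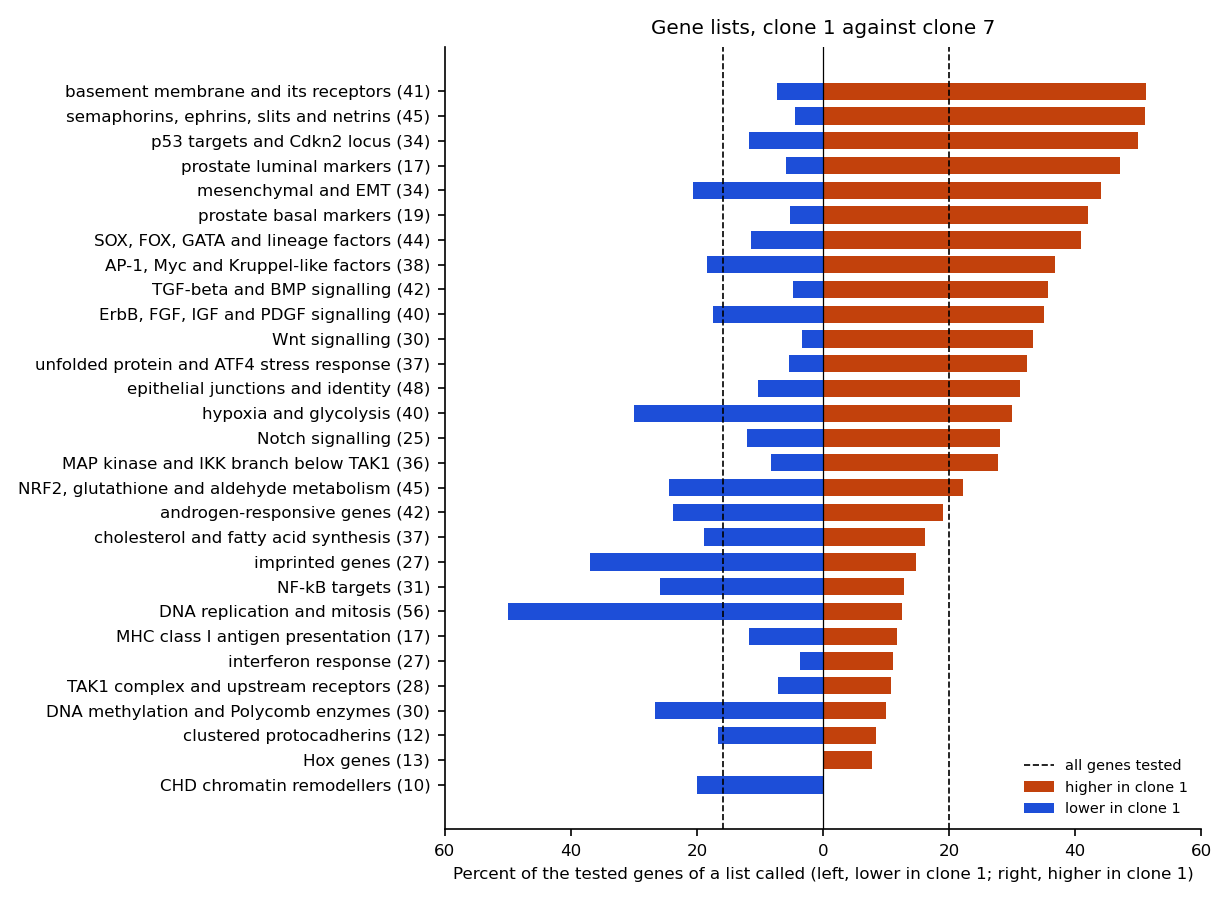
Percent of the tested members of each list called higher (right) or lower (left) in clone 1, with the number tested in brackets, for lists of at least 10; dashed lines give the 19.9% and 15.9% of all genes. Basement membrane and guidance genes lie furthest to the right and DNA replication and mitosis furthest to the left, at 50.0% lower.

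Whether the difference between the clones changed with the second hairpin was tested as an interaction, with against without a shChd1 hairpin. Only 2 of 13030 genes (0.0153%) were called, and 894 had an unadjusted p under 0.05. Both called genes, Gm12671 on chromosome 4 and Gm10359 on chromosome 5, are annotated processed pseudogenes with identical counts, 2101, 1830 and 1434 in clone 1 and 2334, 1595 and 0 in clone 7. The next gene with a protein product was Odc1, which makes the polyamine putrescine, at 24591, 23183 and 20345 counts in clone 1 and 23653, 20075 and 12250 counts in clone 7 (adjusted p = 0.224). It was named after its values were seen. Each clone has 1 library without a shChd1 hairpin. With 8 calls by DESeq2 and 581 with the second hairpin as a replicate block, the number of such genes varied with the method.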

How the data were processed

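Poly(A)-selected RNA was sequenced from WFU3 cells 24 h after plating, per the labels' protocols. The authors deposited expected counts per gene symbol, and the submitters' processing notes name Bowtie2, RSEM 1.3.1, limma and GRCm38; for annotation and strand setting the sources used here say nothing. RSEM divides reads that fit several copies of a gene. The expected counts were rounded and tested with edgeR 4.0.16 in R 4.3.3: TMM scaling, filterByExpr (minimum count 10, total 15), quasi-likelihood F-test with second hairpin and clone as terms over the 6 clone libraries, and Benjamini-Hochberg adjustment. Of 48299 genes, 13030 were kept, and the filter removed at most 0.105% of a library; 25 symbols read as dates (16 among those kept). The second hairpin was in the main design although not every same-hairpin pair of libraries deviated together. Printed CPM were scaled over all 11 libraries. Clones were set against shControl in a fit of all 11 libraries. Chromosomes came from symbols matched to GENCODE (12872 of those kept); windows held 40 genes. DESeq2 1.42.0, limma voom 3.58.1, other scalings, no filter and leaving out each library were the alternatives. The fits were tested on simulated data. Named were Map3k7, Chd1, the 14 called genes furthest apart each way (at least 5 CPM in the higher clone, ranges apart, predicted genes passed over), up to 4 called members of a list by p, the 3 most abundant called genes of chromosomes with a median past 0.15 either way, genes read in 1 clone alone and the leading interaction genes; some of these are given only by count, and a few are not reported here. Members and all 36 gene lists were chosen with earlier results of these data known. Counting intervals and the floor of 3 counts cover counting error only.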

Additional observations from a re-analysis of the deposited data

Results flagged for a closer look

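Gm12671 and Gm10359 passed the test of whether the difference between clone 1 and clone 7 changed with a shChd1 hairpin. Each clone has 1 library without that hairpin, the call rests on a single 0 in clone 7, and the genes have identical counts, so they are 1 observation and no dependence on the hairpin is shown. The fitted log2 value was -14.02 for Gm12671 and -14.02 for Gm10359 (SE 0.63, adjusted p = 0.00019, edgeR quasi-likelihood test), which depends on the prior count because 1 library is at 0. The counts of both were 2101, 1830 and 1434 in clone 1 and 2334, 1595 and 0 in clone 7, with the sh Ctrl library last.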

How the results depend on the processing

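Of 2181 values recomputed for 156 named genes, 0 reversed and 116 lost the call; 126 genes kept it under every alternative run. Leaving out 1 library gave 1976 to 5974 calls between clone 1 and clone 7 (1307 to 3113 higher, 669 to 2863 lower), and 430 to 803 at least 2-fold (313 to 596 higher, 117 to 215 lower). DESeq2 gave 3012 calls (1263 lower), and scaling from genes off chromosomes 4, 5, 7, 16 and 19, added after seeing the data, gave 1224 lower and a median over all genes of 0.08. Without the second hairpin as a replicate block the calls were 4435. Deviations of same-hairpin libraries correlated at 0.064, 0.141 and -0.046, against -0.184 to 0.131 for different hairpins, so not every pair passed 0.1 and the libraries were taken to share only a hairpin. Genes read in clone 1 alone numbered 2 without a filter and 1 to 3 leaving out a library.

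The interaction had 162 calls without a filter (94 higher, 68 lower), 8 by DESeq2 (4 and 4), 581 with the replicate block of second hairpin (338 and 243), and 2 to 259 leaving out a library (0 to 179 higher, 2 to 90 lower); it had 259 without the 96526 and 218 without the 96528 library of clone 7. In fits of 2 groups, clone 1 against shControl had 2984 calls (1335 higher) and clone 7 had 3680 (1606 higher). Leaving out a library gave 3033 to 5010 (1387 to 2388 higher, 1646 to 2622 lower) for clone 1 and 4009 to 5757 (1840 to 2749 higher, 2169 to 3008 lower) for clone 7.

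With scaling off chromosomes 4, 7, 8 and 19 the medians of chromosomes 4, 5, 7, 8, 16 and 19 were 0.28, 0.28, 0.34, -0.13, 0.31 and 0.22. With scaling off 4, 5, 7, 16 and 19 they were 0.32, 0.32, 0.38, -0.09, 0.35 and 0.26, and chromosome 13 was at -0.08. Pair by pair the ranges were 0.23 to 0.26, 0.23 to 0.25, 0.29 to 0.34, -0.20 to -0.14, 0.26 to 0.31 and 0.18 to 0.21, and -0.19 to -0.13 for chromosome 13. Over genes of at least 10 CPM, chromosome 5 was at 0.25. Chromosomes near 0 changed sign with the last scaling: 2 and 10 were at 0, 9 and 15 at 0.02, 17 at 0.01 and 11 at 0.07. Chromosome 11 was also at 0.02 with the first scaling, and pair by pair it ran from -0.05 in the sh Ctrl pair to 0.05 in the 96526 pair. The cause was not tested. Since clone 1 and clone 7 are each 1 clone, these p-values measure only the spread between libraries, which may be technical.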
